A study of Mus musculus with 53 samples.

Results

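Macc1, Rassf10, Fgfr4, Rps6ka6 and Prox1 are 5 of the 8 genes of a Wnt activation signature that the study drew from mouse small intestine 4 days after loss of both copies of Apc. Their levels were followed here in the 11 groups of the same series, each against its own WT, with most attention to the groups other than day 4. The members are the rows of the count table whose Ensembl identifiers carry these symbols, 5 rows of 55421. Each symbol matched 1 row, and all 5 genes passed the filter on low counts in every comparison.

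In the intestinal crypt, Wnt ligands stop the APC-containing destruction complex from degrading β-catenin, which then enters the nucleus, binds TCF/LEF factors and turns on genes that keep stem cells dividing. Loss of Apc does the same without ligand, and it is the usual first step of the conventional adenoma. BRAF V600E is an active kinase that drives the MEK and ERK pathway instead, and ALK5 (TGFBR1) is the type I receptor through which TGFβ restrains epithelial growth.

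The members have different roles. Fgfr4 (ENSMUSG00000005320) encodes a receptor tyrosine kinase for fibroblast growth factors and lies at chr13:55152640-55168759 on the plus strand. Rps6ka6 (ENSMUSG00000025665) encodes RSK4, a ribosomal S6 kinase acting below ERK, and lies at chrX:111388192-111537959 on the minus strand. Rassf10 (ENSMUSG00000098132) encodes a protein with a Ras-association domain and is a gene of 1 exon at chr7:112953962-112957457 on the plus strand. Prox1 (ENSMUSG00000010175) encodes a homeobox transcription factor known for setting lymphatic endothelial identity and lies at chr1:190118035-190170714 on the minus strand. Macc1 (ENSMUSG00000041886) encodes a regulator of transcription of the HGF receptor gene Met and lies at chr12:119314270-119469987 on the plus strand. Coordinates are those of the GRCm38 gene annotation and span all exons and introns of each gene.

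RNA came from whole tissue, so that fewer cells of a type and less RNA per cell cannot be told apart. All mice carried the tamoxifen-inducible Cre recombinase VilCreER, which the villin promoter drives in gut epithelium, and all were induced at an age of 6 to 12 weeks. VilCreER+ mice without floxed or mutant alleles are called WT. The small intestine groups were APCfl/fl mice at day 4 (n = 10) with day 4 WT (n = 6), and tumours of Apcfl/+ mice (n = 5) with WT small intestine (n = 3). The proximal colon groups were endpoint tumours of BrafV600E/+ Alk5fl/fl mice, called BA (n = 4), with WT proximal colon (n = 3). At day 30 (d30) after induction they were BA (n = 5), BA given antibiotics (n = 5), Alk5fl/fl, called A (n = 4), A given sulindac (n = 4) and WT (n = 4). The antibiotics were ampicillin at 1 g/L, neomycin at 1 g/L, vancomycin at 500 mg/L and metronidazole at 1 g/L in the water the mice drank, starting on the day after tamoxifen, and sulindac was given at 0.4 g/L for 14 days followed by normal water. The background was Mixed C57BL/6J N6, except for the Apcfl/+ tumours and the WT small intestine, which were inbred C57BL6/J. The labels do not say whether replicates of a group are separate mice, and the study's reporting statement describes its replicates in general as independent animals, so that the p-values below were read as measuring the spread between animals.

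Libraries held 516985 to 32824795 reads on genes. The tissue was checked with 7 small intestine and 5 proximal colon markers. The summed level of the labelled tissue's markers was the higher one in every library except 1 BA tumour and 1 Apcfl/+ tumour. The library labelled Apcfl/+ tumour replicate 2 had a small intestine sum of 24.8 normalised CPM (reads on the gene scaled by library size with TMM factors), against 3004 to 8388 in the other Apcfl/+ tumours. Its Gata4, a transcription factor of the proximal small intestine, was at 0.464 CPM against 69.5 to 85.1, and its Car1, a colonic carbonic anhydrase, at 167 CPM against 0.579 or less in the other Apcfl/+ tumours. It also held 241 CPM of Hoxb13, a distal homeobox gene chosen after its values were seen, which was at 0.452 CPM or less in all proximal colon libraries. BA tumour replicate 2 had a small intestine sum of 1250 CPM against 18.6 to 42.5 in the other BA tumours and a proximal colon sum of 1098 against 3357 to 5155. Results of the members and of the gene lists that rest on these libraries are given with and without them, and the part of tissue identity in any of them was not tested. Gene totals of Apc, Braf and Tgfbr1 (Alk5) do not read an exon deletion or a base change and so check no genotype.

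The sequences before the start sites were read because the members were chosen in tissue with active β-catenin. The letters CTTTGA or CTTTGT, the core that TCF/LEF factors bind, were searched on both strands of the 250 bases upstream of each start in the RefSeq table (build GRCm38.p6), which matched 4 of the 5 members and none for Rassf10. Neither word overlaps the other, and at least 1 of them stood in 27.6% of 32851 such windows in the genome. By gene, 30.8% of 27025 genes had a window with a match. The windows of Macc1, Prox1 and Rps6ka6 are shown because 2 of them hold a match and Rps6ka6 is the member that behaved differently from the others in Apcfl/+ tumours, with a match in capitals where there is one. The Macc1 window, chr12:119443160-119443409 on the plus strand, holds a CTTTGT that begins 16 bases before the start, and it lies mostly in an intron of 4 longer Macc1 transcripts. The Prox1 window, chr1:190169516-190169765 on the minus strand, holds a CTTTGT that begins 174 bases before the start, in an intron of longer Prox1 transcripts and over an exon of the antisense gene Gm28172. The Rps6ka6 window, chrX:111537960-111538209 on the minus strand, holds neither word, nor do another window of Prox1, another of Rps6ka6 and that of Fgfr4. A match is a description of the letters and no evidence of binding, and a link between these letters and the levels was not tested.
Macc1: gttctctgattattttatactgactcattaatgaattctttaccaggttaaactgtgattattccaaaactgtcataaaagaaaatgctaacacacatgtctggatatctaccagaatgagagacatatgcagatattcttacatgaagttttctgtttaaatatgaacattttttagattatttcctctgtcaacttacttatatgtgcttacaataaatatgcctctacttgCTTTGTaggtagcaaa
Prox1: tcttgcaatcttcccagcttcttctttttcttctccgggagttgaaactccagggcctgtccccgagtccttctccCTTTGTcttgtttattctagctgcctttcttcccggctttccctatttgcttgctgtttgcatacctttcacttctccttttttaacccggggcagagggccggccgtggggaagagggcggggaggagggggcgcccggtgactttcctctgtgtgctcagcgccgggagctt
Rps6ka6: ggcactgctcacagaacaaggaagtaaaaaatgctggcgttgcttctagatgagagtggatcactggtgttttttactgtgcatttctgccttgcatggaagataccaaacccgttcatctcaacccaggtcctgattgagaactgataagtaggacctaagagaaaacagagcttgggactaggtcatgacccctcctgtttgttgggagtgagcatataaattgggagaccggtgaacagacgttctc

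In the day 4 small intestine all 5 genes were higher in Apcfl/fl tissue. The members were chosen by this contrast, with thresholds of 2 on the absolute log2 fold change and 1e-05 on p, so its values are a description without a test. Log2 fold changes were 2.25 for Fgfr4, 2.34 for Rps6ka6, 2.04 for Rassf10, 2.25 for Prox1 and 3.57 for Macc1. Rassf10 was thus the member nearest to the fold change threshold. The genes just below that threshold here were Tcf7 and Phlda1 at 1.991 and Fam57a at 1.988. The study also required a human orthologue, epithelial-specific expression in human single-cell data and a place in the AXIN2 cluster of human tumour data. Its model held a batch term, which the fit here lacks. Whether these genes passed those other filters was not checked. Rps6ka6 ran from 15.4 CPM with a median of 19.2 to 26.1 in Apcfl/fl and from 1.93 with a median of 3.67 to 6.21 in WT. Prox1 ran from 5.22 with a median of 13.3 to 20.3 against 2.65, 2.74 and 3.10 for the lowest, median and highest WT library. The groups did not overlap for these 2 genes. Fgfr4 ran from 9.56 with a median of 33.8 to 42.7 CPM, against 2.75, 5.02 and 11.6 in WT. Macc1 ran from 1.59 with a median of 12.3 to 18.9 CPM, against 0.293, 0.821 and 2.29 in WT, and Rassf10 from 1.17 with a median of 3.14 to 4.39, against 0.318, 0.749 and 1.24. The processed pseudogene Gm13394, chosen after its values were seen, exceeded 10 CPM in 6 of 10 Apcfl/fl and 3 of 6 WT libraries. Those 3 WT libraries all had more Fgfr4, Macc1 and Rassf10 than the other WT libraries, whereas Rps6ka6 and Prox1 overlapped between them. The part of this feature was not tested. The low ends of Fgfr4, Prox1 and Macc1 in Apcfl/fl were held by replicates 1 and 8. Replicate 1 was the library with the fewest reads, and replicate 8 had 36.5 CPM of Apc against 111 to 147 in the other Apcfl/fl libraries. Replicate 8 was also lowest in Braf (12.5 CPM against 29.3 to 37.4) and Gata4 (58.2 against 93.2 to 140), and highest in Etv4 (57.6 against 25.5 to 56.6).

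**Figure D1:**
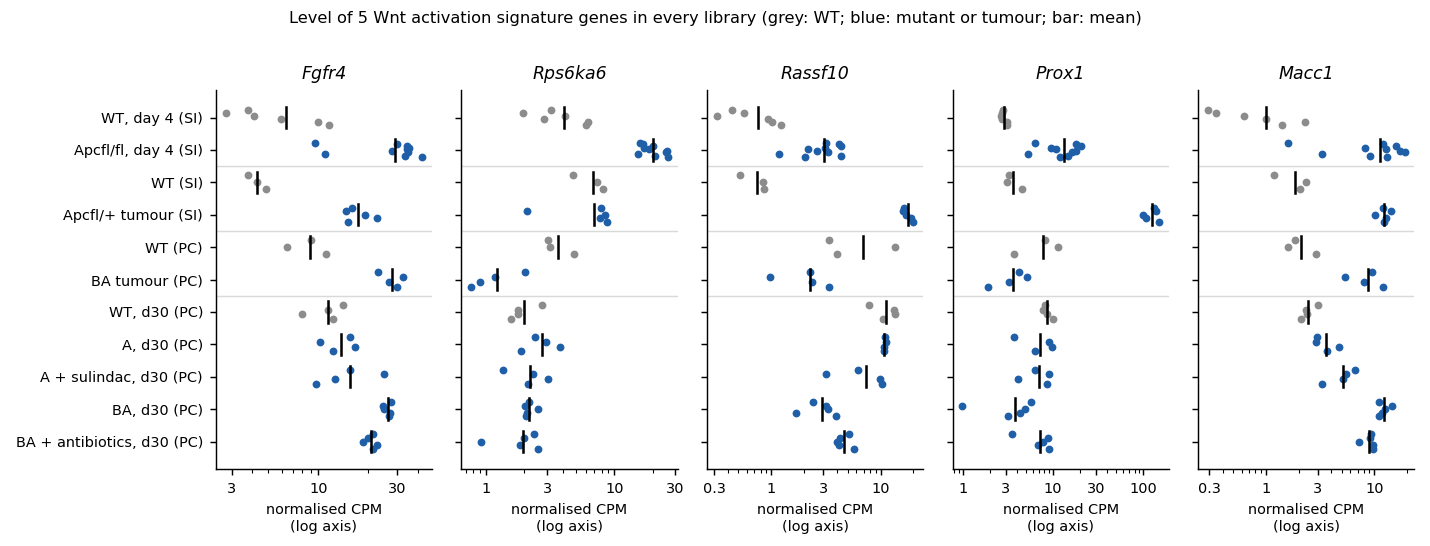
Normalised CPM of each member (log axis) in every library, by group, with 1 point per library and a bar at the group mean. Prox1 stands at 99.8 to 149 CPM in the Apcfl/+ tumours and at no more than 20.3 elsewhere, whereas Rps6ka6 exceeds 10 CPM in the day 4 Apcfl/fl libraries alone.

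Across the 11 groups the members did not rise and fall together. The ratio of the highest to the lowest group mean was 44.0 for Prox1, 23.9 for Rassf10, 16.5 for Rps6ka6, 12.3 for Macc1 and 6.86 for Fgfr4. Fgfr4 had its highest mean in day 4 Apcfl/fl (29.4 ± 10.8 CPM, SD, n = 10), followed by BA tumours (28.1 ± 4.08, n = 4) and d30 BA (26.3 ± 1.35, n = 5), and these 3 overlapped in their ranges. The d30 BA libraries did not overlap with the next group, antibiotic-treated d30 BA (20.9 ± 1.64, n = 5). Rps6ka6 was at 20.2 ± 4.21 CPM in day 4 Apcfl/fl, clear of every other group, and lowest in BA tumours at 1.22 ± 0.565. Rassf10 was highest in Apcfl/+ tumours (17.6 ± 1.73 CPM), clear of d30 WT as the next group (11.2 ± 2.68), and its day 4 Apcfl/fl mean of 3.05 ± 1.07 ranked below those of all 4 proximal colon groups without mutant Braf. Prox1 was at 125 ± 21.0 CPM in Apcfl/+ tumours, clear of day 4 Apcfl/fl at 13.1 ± 5.21, and from there down each group overlapped with the next. Macc1 had nearly equal means in Apcfl/+ tumours (12.2 ± 1.48 CPM), d30 BA (12.2 ± 1.47) and day 4 Apcfl/fl (11.2 ± 5.68), and every neighbour in its order overlapped. Per kilobase of exon, Prox1 in Apcfl/+ tumours had the highest level of any member and group, 14.9 CPM per kb, against 8.29 for Fgfr4 in day 4 Apcfl/fl and 0.244 for Rps6ka6 in BA tumours.

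In tumours of Apcfl/+ mice, in which the remaining Apc copy is intact at induction, 4 of the 5 genes were higher than in WT small intestine and Rps6ka6 was not. Prox1 rose 37.0-fold, Rassf10 25.5-fold, Macc1 7.06-fold and Fgfr4 4.39-fold. The 4 calls stand beside a comparison in which 61.5% of all genes tested were called at an adjusted p under 0.05 (edgeR's quasi-likelihood test with Benjamini-Hochberg adjustment over all genes tested, as for every adjusted p below). The median log2 fold change of the 5 members was 2.82, against 0.03 over all genes.

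Fgfr4, the receptor, was at 16.03, 14.7, 19.2, 22.6 and 15.2 CPM in the tumours and at 3.76, 4.23 and 4.85 in WT. The groups did not overlap, and the log2 fold change was 2.13 ± 0.19 (SE; adjusted p = 5.93e-05). Rassf10 was at 16.2, 16.1, 16.9, 19.0 and 19.96 CPM in the tumours and at 0.515, 0.836 and 0.863 in WT. All tumours lay above all WT libraries by more than an order of magnitude (4.67 ± 0.21, adjusted p = 7.98e-06). Prox1 was at 130, 138, 99.8, 106 and 149 CPM in the tumours and at 3.24, 3.06 and 4.53 in WT, again without overlap (5.21 ± 0.22, adjusted p = 5.57e-06). Macc1 was at 11.9, 14.3, 10.2, 12.7 and 12.3 CPM in the tumours and at 1.18, 2.34 and 2.05 in WT, without overlap (2.82 ± 0.24, adjusted p = 4.95e-05). In the library labelled Apcfl/+ tumour replicate 2 these 4 genes lay above all WT libraries, as in the other tumours.

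Rps6ka6, the kinase gene, was the exception. It was at 7.95, 2.09, 8.46, 7.70 and 8.77 CPM in the tumours and at 4.79, 7.30 and 8.25 in WT. The 2.09 CPM belonged to the library labelled Apcfl/+ tumour replicate 2, and the other 4 tumours lay within or just above the WT range. The log2 fold change was 0.15 ± 0.42 (adjusted p = 0.773, 95% interval -0.80 to 1.10). Without that library it was 0.38 ± 0.19 (adjusted p = 0.102), and the log2 fold changes of the other members were 2.19 for Fgfr4, 4.71 for Rassf10, 5.17 for Prox1 and 2.76 for Macc1, with the same 4 calls.

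Reads of 2 antisense genes could touch Prox1 here. Its exons overlap those of Prox1os and Gm28172 on the other strand over 1.59% of their length, and the strand setting of the counting is not given in the sources used here. Prox1os was counted at 0.442 to 0.955 CPM and Gm28172 at 0.442 to 1.44 CPM in these tumours, so that both were far below Prox1. Prox1 is also known from lymphatic endothelium and from enteroendocrine and tuft cells. The summed level of 6 lymphatic markers was 79.1 to 100 CPM in tumours and 124 to 129 in WT, that of 9 enteroendocrine markers 43.5 to 129 against 205 to 292, and that of 6 tuft cell markers 139 to 344 against 43.3 to 60.0. Of the 5 tuft cell markers tested, 1 was called higher and the median log2 fold change was 0.10, so that a few genes carried the sum, and the tuft cell kinase gene Dclk1 was at 12.2 to 35.1 CPM against 16.3 to 22.3. Fibroblast markers summed to 2785 to 3508 CPM against 1139 to 1480. The processed pseudogene Gm13394, chosen after its values were seen, was at 0.417 to 1.81 CPM in the 5 tumours and at 47.0 to 107 in the 3 WT libraries, so that these groups also stood apart in a feature other than the labelled alleles. The part of cell type makeup and of that feature in these results was not tested.

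In endpoint tumours of BA mice, in which mutant Braf and Alk5 loss were induced in the epithelium, the same genes went different ways. Macc1 and Fgfr4 rose 4.06-fold and 3.12-fold over WT proximal colon, and Rps6ka6 fell 3.06-fold. Rassf10 and Prox1 had log2 fold changes below 0 that did not pass the test. The 3 calls stand beside 13.2% of all genes called, and the median over the 5 members was -1.11 against 0.03 over all genes.

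Fgfr4 was at 23.1, 32.6, 26.9 and 29.9 CPM in BA tumours and at 9.04, 6.46 and 11.1 in WT proximal colon. No tumour overlapped with WT, and the log2 fold change was 1.64 ± 0.25 (adjusted p = 0.00523). Macc1 was at 9.56, 5.38, 8.04 and 11.9 CPM against 1.87, 1.59 and 2.89, also without overlap (2.02 ± 0.37, adjusted p = 0.00952). The call of Macc1 was lost without WT replicate 1 (1.93 ± 0.46, adjusted p = 0.0612), and that of Fgfr4 was kept in every fit that left out 1 library.

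Rps6ka6 was at 2.03, 1.18, 0.906 and 0.769 CPM in BA tumours and at 3.03, 3.17 and 4.83 in WT. All 4 tumours lay below all 3 WT libraries (-1.62 ± 0.41, adjusted p = 0.0322). The call was lost without BA tumour replicate 3 (adjusted p = 0.0809) or 4 (0.0922) and without WT replicate 1 (0.0873), 2 (0.0574) or 3 (0.158). The gene is X-linked. Reads of the Y-linked gene Ddx3y exceeded 10 CPM in 3 of 4 tumours and in no WT library. Sex is not labelled, and its part in this result was not tested.

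Rassf10 was at 2.25, 0.968, 2.38 and 3.402 CPM in BA tumours and at 3.39, 13.5 and 4.02 in WT. The groups overlapped by 1 tumour and WT replicate 2 stood far above the others, and the log2 fold change was -1.61 ± 0.55 (adjusted p = 0.0901). Without WT replicate 2 it was -0.74 ± 0.48 (adjusted p = 0.369). Prox1 was at 4.24, 5.16, 3.23 and 1.903 CPM against 8.10, 11.2 and 3.69. Of the 4 tumours 2 lay below all WT libraries (-1.11 ± 0.45, adjusted p = 0.141). Without BA tumour replicate 2, whose markers stood apart, the log2 fold changes were 1.54 for Fgfr4, -1.62 for Rps6ka6, -1.40 for Rassf10, -1.34 for Prox1 and 2.17 for Macc1, with the same 3 calls. In BA tumours fibroblast markers summed to 4460 to 5363 CPM against 1489 to 2475 in WT, immune markers to 555 to 1435 against 333 to 380 and enteroendocrine markers to 37.0 to 158 against 308 to 615, and 10 epithelial markers to 9415 to 14537 against 10348 to 13325. Smooth muscle markers summed to 1693 to 3484 CPM against 2444 to 9683, with 4 of 8 lower. WT replicate 2 had the highest WT sum of these and the highest Prox1 and Rassf10. WT replicate 3 had the lowest WT sum and Prox1 but not the lowest Rassf10. Among the tumours, replicate 4 had the lowest sum and Prox1 but the highest Rassf10. Tumour replicate 3 had the highest tumour sum but not the highest Prox1. Gm13394 was over 10 CPM in 3 of 4 BA tumours and in 0 of 3 WT libraries. The part of these features in the results was not tested.

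**Figure D2:**
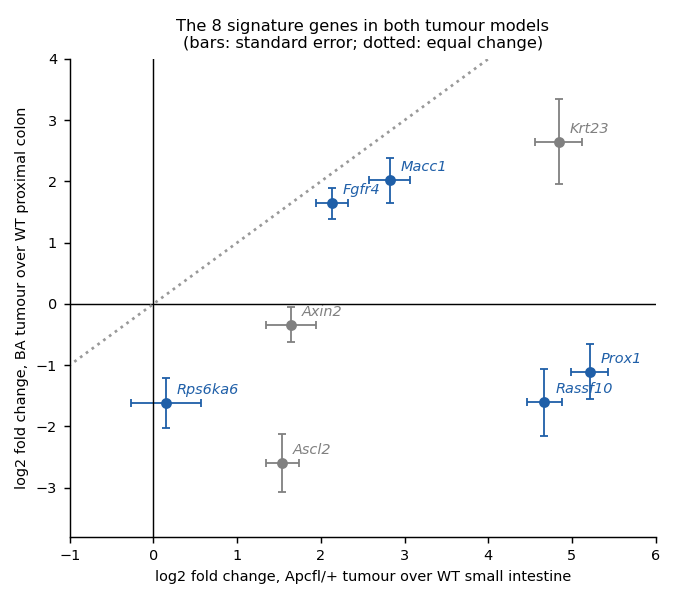
Log2 fold change over WT of the 8 signature genes in Apcfl/+ tumours (horizontal axis) and BA tumours (vertical axis), with bars of 1 SE, the 5 members in blue, the other signature genes in grey and a dotted line of equal change. Fgfr4 and Macc1 lie near that line, whereas Prox1 and Rassf10 lie at 5.21 and 4.67 on the horizontal axis and below 0 on the vertical one.

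Whether the tumour effects differed between the models was tested as an interaction, the effect in BA minus the effect in Apcfl/+. It passed for 3 members, beside 39.7% of all genes. Prox1 gave -6.30 ± 0.51 on the log2 scale (adjusted p = 6.65e-06) and Rassf10 -6.24 ± 0.66 (adjusted p = 3.8e-05), so that both effects were lower in BA tumours. Rps6ka6 gave -1.71 ± 0.61 (adjusted p = 0.0366). That call was lost without WT proximal colon replicate 1 (adjusted p = 0.0512) or 3 (0.0899) and without WT small intestine replicate 1 (0.0872), and with limma (-1.67, adjusted p = 0.0761). Ddx3y exceeded 10 CPM in 1 of 5 Apcfl/+ tumours and in 3 of 3 WT small intestine libraries, and its part was not tested. Fgfr4 gave -0.46 ± 0.29 (adjusted p = 0.215, 95% interval -1.08 to 0.16) and Macc1 -0.76 ± 0.41 (adjusted p = 0.146, interval -1.63 to 0.11), which does not show that their effects were equal. Macc1 passed without BA tumour replicate 4 (adjusted p = 0.0475) and Fgfr4 without WT proximal colon replicate 2 (0.0464). Without both tumour libraries whose tissue markers stood apart, an alternative chosen after seeing the data, Prox1 gave -6.56, Rassf10 -6.14 and Rps6ka6 -2.04 (adjusted p = 0.00245), and the same 3 genes were called. Tissue, strain background and WT group differ together with genotype in this test and cannot be told apart from it.

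**Figure D3:**
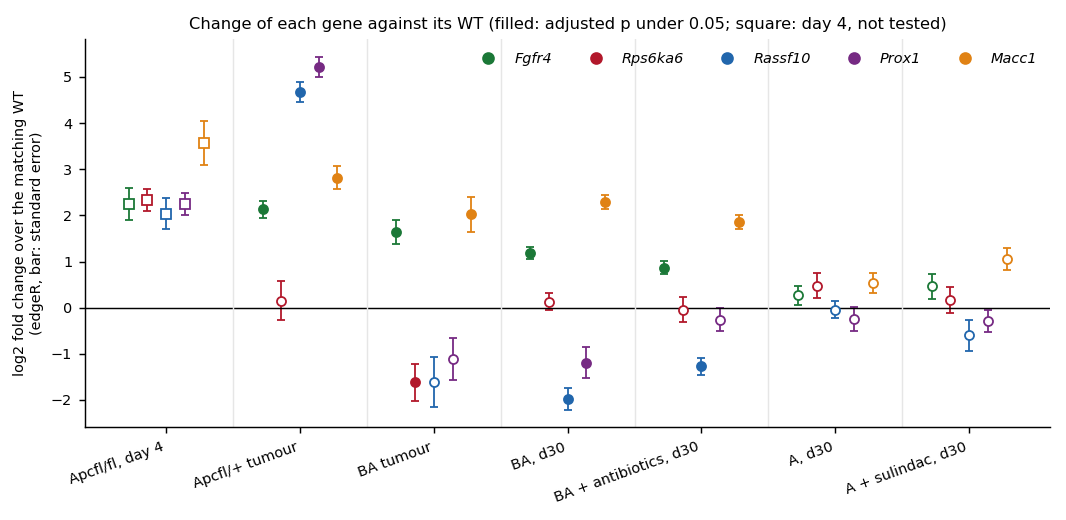
Log2 fold change of each member against its own WT in the 7 mutant or tumour groups, with bars of 1 SE and filled circles where the adjusted p was under 0.05. Day 4 is drawn as open squares, without a test. Fgfr4 and Macc1 stay above 0 in both tumour models and in d30 BA, whereas Rassf10 and Prox1 change sign between Apcfl/+ tumours and the BA groups.

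In d30 BA colon, before the endpoint, members were again called in both directions, and those called lower differed from BA tumours. Macc1 rose 4.88-fold and Fgfr4 2.28-fold over d30 WT, Rassf10 fell 3.92-fold and Prox1 2.29-fold, and Rps6ka6 was not called. The 4 calls stand beside 55.1% of all genes called, 4516 higher and 5118 lower. The median over the members, 0.13, describes none of them because their directions differed.

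Fgfr4 was at 27.7, 24.8, 25.0, 27.3 and 26.8 CPM in d30 BA and at 14.2, 11.5, 7.98 and 12.3 in d30 WT. The BA libraries were close to each other and clear of WT (1.19 ± 0.13, adjusted p = 2.72e-05). Macc1 was at 11.1, 14.6, 12.4, 11.8 and 11.02 CPM against 3.02, 2.36, 2.40 and 2.105, without overlap (2.29 ± 0.15, adjusted p = 3.93e-07). Rassf10 was at 2.43, 3.14, 3.31, 1.67 and 3.94 CPM against 7.80, 13.2, 13.5 and 10.4. Here all BA libraries lay below WT (-1.97 ± 0.24, adjusted p = 4.25e-05). Prox1 was at 5.66, 0.986, 4.89, 4.33 and 3.15 CPM against 8.06, 7.75, 8.55 and 9.95, also below WT in all 5 (-1.19 ± 0.34, adjusted p = 0.0112). Rps6ka6 was at 2.16, 2.03, 2.57, 2.104 and 2.06 CPM against 2.76, 1.78, 1.78 and 1.58. The groups overlapped, and the log2 fold change was 0.13 ± 0.19 (adjusted p = 0.595, 95% interval -0.30 to 0.55).

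Epithelial markers summed to 21622 to 25939 CPM in d30 BA and to 11056 to 13267 in d30 WT, with 9 of 10 genes higher, and lymphatic markers to 52.8 to 72.0 against 94.0 to 120, with 5 of 6 lower. Enteric nervous system markers summed to 13.6 to 32.1 CPM against 31.9 to 69.2, with 7 of 7 lower, smooth muscle markers to 1104 to 4424 against 5556 to 6461, with 6 of 8 lower, and fibroblast markers to 1006 to 1270 against 1346 to 1670, with 6 of 7 lower. The d30 BA library with the lowest smooth muscle sum was also the one with 0.986 CPM of Prox1, and that with the highest sum the one with 5.66. The pseudogene Gm13394 was over 10 CPM in all d30 BA and d30 A libraries and in 0 of the 4 d30 WT libraries, so that the WT libraries stood apart from both mutant groups in a feature other than the labelled alleles. The part of these features in the results was not tested. Against d30 A, which shares that feature, d30 BA gave log2 fold changes of 0.95 ± 0.14 for Fgfr4 (adjusted p = 0.00031), 1.78 ± 0.18 for Macc1 (adjusted p = 3.05e-05) and -1.89 ± 0.21 for Rassf10 (adjusted p = 4.41e-05), 3 calls beside 45.3% of all genes. Prox1 gave -0.91 ± 0.41 (adjusted p = 0.0921), and passed without d30 A replicate 1 (adjusted p = 0.0375) and in the fit over all 5 groups of day 30 (-0.93, adjusted p = 0.0457). Rps6ka6 gave -0.32 ± 0.22 (adjusted p = 0.259). Epithelial markers were 10143 to 19064 CPM in d30 A. This comparison shares its BA libraries with the one above, so that its values are no independent repeat.

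Endpoint tumours and d30 tissue were compared through the interaction of the BA effect, endpoint minus day 30. Rps6ka6 was the 1 member called, beside 16.3% of all genes, at -1.73 ± 0.42 (adjusted p = 0.0109). Without BA tumour replicate 2 it gave -1.66 and was again the 1 member called. Fgfr4 gave 0.45 ± 0.25 (adjusted p = 0.25), Macc1 -0.26 ± 0.34 (0.647), Rassf10 0.37 ± 0.60 (0.727) and Prox1 0.07 ± 0.61 (0.961). The intervals of Rassf10 (-0.89 to 1.63) and Prox1 (-1.22 to 1.36) were wide. Mean Rps6ka6 was 3.68 CPM in WT proximal colon and 1.975 in d30 WT, and 1.22 in BA tumours and 2.18 in d30 BA. Ddx3y exceeded 10 CPM in 0 of 3, 4 of 4, 3 of 4 and 5 of 5 of these libraries. Of 10 epithelial markers, 7 were lower in this interaction. The part of these features was not tested. Time point, tumour state and WT group differ together in this test and cannot be told apart.

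**Figure D4:**
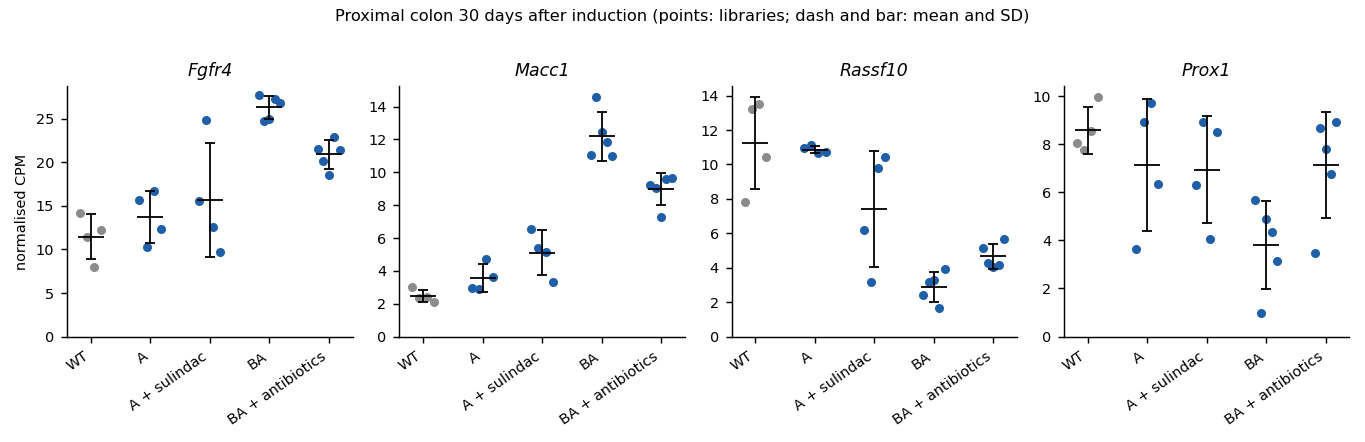
Normalised CPM of Fgfr4, Macc1, Rassf10 and Prox1 in every library of the 5 d30 proximal colon groups, with a dash at the group mean and bars of 1 SD. The means of Fgfr4 and Macc1 are highest and that of Rassf10 lowest in untreated BA, and those of antibiotic-treated BA lie between untreated BA and WT.

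Antibiotic-treated d30 BA colon kept the direction of 3 members against d30 WT. Fgfr4 was at 21.6, 20.1, 18.5, 22.9 and 21.5 CPM, above all WT libraries (0.87 ± 0.15, adjusted p = 0.00115). Macc1 was at 9.21, 9.07, 7.27, 9.62 and 9.64 CPM, also above WT (1.86 ± 0.15, adjusted p = 9.9e-06). Rassf10 was at 5.15, 4.30, 4.01, 4.15 and 5.68 CPM and lay below WT (-1.27 ± 0.18, adjusted p = 0.000422). These 3 calls stand beside 39.6% of all genes. Prox1 was at 3.48, 8.66, 7.81, 6.74 and 8.94 CPM and overlapped with WT (-0.26 ± 0.25, adjusted p = 0.435). Rps6ka6 was at 2.38, 1.98, 0.922, 1.84 and 2.55 CPM and overlapped as well (-0.04 ± 0.28, adjusted p = 0.929). Epithelial markers summed to 19150 to 29850 CPM in the treated libraries and to 11056 to 13267 in d30 WT, with 9 of 10 genes higher, and Gm13394 was over 10 CPM in 5 of 5 treated libraries and in 0 of 4 d30 WT libraries. Treated replicate 1 had the lowest smooth muscle marker sum of the treated libraries, 1860 CPM against 3671 to 6217, and the lowest Prox1. The highest sum, in treated replicate 2, did not go with the highest Prox1. The part of these features in the results was not tested.

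Set against untreated d30 BA, the treated libraries were lower in Macc1 (1.36-fold) and Fgfr4 (1.25-fold). Macc1 gave -0.44 ± 0.11 (adjusted p = 0.0218) and Fgfr4 -0.33 ± 0.06 (adjusted p = 0.00804), with all 5 treated libraries below all 5 untreated ones for both genes, 2 calls beside 13.0% of all genes. Rassf10 had all 5 treated libraries above the untreated ones but gave 0.69 ± 0.21 with an adjusted p of 0.0557. It passed without treated replicate 3 (0.72, adjusted p = 0.0492) or without untreated replicate 5 (adjusted p = 0.0392). Prox1 gave 0.92 ± 0.39 (adjusted p = 0.141) and Rps6ka6 -0.18 ± 0.23 (adjusted p = 0.627). Macc1 did not pass without untreated replicate 2 (-0.34, adjusted p = 0.0639). In the fit over all 5 groups of day 30 neither Macc1 (-0.45, adjusted p = 0.108) nor Fgfr4 (-0.34 ± 0.19, adjusted p = 0.288) passed. Treated replicate 3 stood apart with a fibroblast marker sum of 7416 CPM against 1086 to 1554 in the others, and without it Macc1 gave -0.39 (adjusted p = 0.028) and Fgfr4 -0.30 (adjusted p = 0.0112). The part of the stroma in these results was not tested.

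Targeting of Alk5 alone gave no call among the members. In d30 A, Fgfr4 was at 15.7, 10.2, 16.7 and 12.3 CPM, Rps6ka6 at 2.43, 2.93, 3.76 and 1.87, and Rassf10 at 10.95, 11.1, 10.65 and 10.7. Prox1 was at 3.65, 8.90, 9.72 and 6.33 CPM and Macc1 at 2.97, 2.93, 4.75 and 3.63. Each gene overlapped with d30 WT, at log2 fold changes from -0.25 (Prox1) to 0.54 (Macc1). By edgeR, 0 members were called beside 0.141% of all genes, and 1, Macc1, had an unadjusted p under 0.05 (0.54 ± 0.22, p = 0.0303, adjusted p = 0.5). DESeq2 and limma called 0 as well. The 95% interval for Macc1 was 0.06 to 1.02, beside 1.97 to 2.61 for d30 BA against the same WT libraries.

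Sulindac, an inhibitor of cyclooxygenases, was given to A mice. Macc1 was at 6.56, 5.42, 5.18 and 3.31 CPM in these libraries, above all d30 WT libraries (1.06 ± 0.24, unadjusted p = 0.00114, adjusted p = 0.311). Fgfr4 was at 15.5, 24.9, 12.6 and 9.71 CPM and Rassf10 at 6.20, 3.19, 9.79 and 10.4, both overlapping with WT (0.46 ± 0.28 and -0.60 ± 0.33). Rps6ka6 was at 1.36, 2.32, 3.06 and 2.13 CPM and Prox1 at 6.30, 8.91, 4.05 and 8.48, and both overlapped with WT as well. Gm13394 was over 10 CPM in 4 of 4 of these libraries, and its part was not tested. Against d30 WT edgeR called 0 members beside 0.0507% of all genes, and DESeq2 called Macc1 (adjusted p = 0.0136). Against untreated d30 A, edgeR called 0 members beside 0% of all genes, and 0 members had an unadjusted p under 0.05, and DESeq2 and limma called 0 as well. All 4 sulindac libraries lay below all d30 A libraries in Rassf10 (-0.55 ± 0.31, adjusted p = 1), and Macc1 gave 0.53 ± 0.26 (adjusted p = 1). These comparisons share the d30 A or d30 WT libraries with those above.

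The rest of the signature and 26 genes of the Wnt pathway, a list that includes Axin2, Ascl2 and Krt23, give the setting of the members. In Apcfl/+ tumours 24 of 26 were higher and 2 lower, beside 61.5% of all genes called, with a median log2 fold change of 2.08 against 0.03 over all genes. Axin2, a feedback inhibitor of the pathway, rose by 1.64, the stem cell factor Ascl2 by 1.54 and the keratin Krt23 by 4.84 on the log2 scale. Notum, a secreted inhibitor, rose by 8.77. Without the library labelled Apcfl/+ tumour replicate 2 the counts were again 24 and 2, with a median of 1.83, and Axin2 gave 1.38, Ascl2 1.41, Krt23 4.97 and Notum 8.87. In d30 BA 8 of 25 were higher and 10 lower, beside 55.1% of all genes called, with a median of -0.31 against -0.03 over all genes. Axin2 fell by 0.91, Ascl2 by 1.19 and the stem cell receptor Lgr5 by 0.72 on the log2 scale, whereas Krt23 rose by 1.94. The signature itself was divided in d30 BA, with Macc1, Fgfr4 and Krt23 higher, Rassf10, Prox1, Axin2 and Ascl2 lower and Rps6ka6 not called.

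In BA tumours 7 of the 26 were higher and 2 lower, beside 13.2% of all genes called, and the median was 0.85. Of these 9 calls in all, 1 was left without WT replicate 1 and 5 without WT replicate 3, and without BA tumour replicate 2 it was 8 of 25 higher and 4 lower. Ascl2 fell by 2.60 (adjusted p = 0.00917) and Krt23 gave 2.65 ± 0.69 (adjusted p = 0.0372). Ascl2 was not called without WT replicate 1 (adjusted p = 0.0541), and Krt23 not without BA tumour replicate 3 or 4 or WT replicate 1 or 3. Axin2 gave -0.34 ± 0.29 (adjusted p = 0.495) with all libraries and -0.69 (adjusted p = 0.0189) without BA tumour replicate 2. The interaction with the Apcfl/+ tumours was called for 17 of the 26, beside 39.7% of all genes, 2 with a higher and 15 with a lower effect in BA, among them Axin2 (-1.96), Ascl2 (-4.12), Lgr5 (-2.84) and Notum (-7.96). Without both tumour libraries whose tissue markers stood apart it was called for 3 with a higher and 19 with a lower effect. In antibiotic-treated d30 BA 6 of 24 were higher and 7 lower, beside 39.6% of all genes called, with Axin2 at -0.52 (adjusted p = 0.00642) and Krt23 at 0.52 (adjusted p = 0.144). Against untreated BA, Krt23 was lower in the treated libraries by 1.43 on the log2 scale (adjusted p = 0.0085), as Macc1 and Fgfr4 were. In d30 A edgeR called 0 of 25 against d30 WT, with 3 at an unadjusted p under 0.05, and DESeq2 and limma called 0. In sulindac-treated A it called 0 of 25, with 5 at an unadjusted p under 0.05, and DESeq2 called 1.

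The families of the members were read beside the same shares of all genes called, and differences between relatives were not tested. Among 9 genes of FGF reception, 7 were tested in d30 BA, where 6 were called beside 55.1% of all genes and Fgfr4 was the 1 that rose. Fgfr1 (-0.67), Fgfr2 (-1.42), Fgfr3 (-1.77), the decoy-like receptor Fgfrl1 (-1.12) and the adaptor Frs3 (-1.54) fell there, and the adaptor Frs2 was not called. Klb, the co-receptor of FGFR4, and the ligand gene Fgf15 did not pass the filter on low counts in that comparison. In BA tumours 4 of 9 were called, beside 13.2% of all genes. Fgfr4 was the 1 called higher, and Fgfr1 gave 1.43 ± 0.48 (adjusted p = 0.0823) with no overlap between tumours and WT at means of 56.3 and 20.8 CPM, and DESeq2 called it (adjusted p = 0.0196). Fgfr2 (-1.15), Fgfr3 (-1.93) and Fgfrl1 (-0.86) were lower, calls that were lost in 5, 4 and 6 of the 7 fits without 1 library each. Without BA tumour replicate 2, 1 of 8 was higher and 3 were lower, and Fgfr1 gave 0.82 (adjusted p = 0.065). In Apcfl/+ tumours 4 of 8 rose and 1 fell, beside 61.5% of all genes called, and Fgfrl1 gave 3.28. Without the library labelled Apcfl/+ tumour replicate 2 the counts were again 4 and 1, and Fgfrl1 gave 3.31.

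Among the 6 ribosomal S6 kinase genes, Rps6ka4, which encodes MSK2, rose in d30 BA (1.31 ± 0.06, adjusted p = 5.51e-08) and in Apcfl/+ tumours (0.98 ± 0.19, adjusted p = 0.00225). Rps6ka6 was called in neither. Rps6ka3, which encodes RSK2, rose in d30 BA by 0.65. In all, 3 of the 6 were higher and 1 lower in d30 BA, beside 55.1% of all genes called, and 2 higher and 1 lower in Apcfl/+ tumours, beside 61.5%, or 3 higher and 2 lower without the library labelled Apcfl/+ tumour replicate 2, where Rps6ka4 gave 1.11. Of the 10 Rassf genes 4 were higher and 5 lower in d30 BA, beside the same 55.1%, with Rassf10 the lowest (-1.97), followed by Rassf8 (-1.01), and Rassf1 rose by 0.93. In Apcfl/+ tumours 5 rose and 3 fell, beside the same 61.5%, with Rassf10 (4.67) and Rassf4 (-1.73) at the ends, and the counts were again 5 and 3 without the library labelled Apcfl/+ tumour replicate 2 (4.71 and -1.71).

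Macc1, its relative Sh3bp4, the receptor gene Met and its ligand gene Hgf form the last group. In d30 BA Macc1, Sh3bp4 (0.89) and Met (0.74) rose. In antibiotic-treated d30 BA, Sh3bp4 (0.66) and Met (0.78) rose as well. In Apcfl/+ tumours Macc1, Sh3bp4 (1.31) and Hgf (1.78) rose, and Met gave 0.17 with all libraries and 0.28 (adjusted p = 0.025) without the library labelled Apcfl/+ tumour replicate 2. Prox2, the 1 relative of Prox1, moved with it in d30 BA (-0.78, adjusted p = 0.0165, and not called without d30 WT replicate 3) and against it in Apcfl/+ tumours (-1.06, adjusted p = 0.00636, and -1.20 without that library, where Sh3bp4 gave 1.28 and Hgf 1.86).

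**Figure D5:**
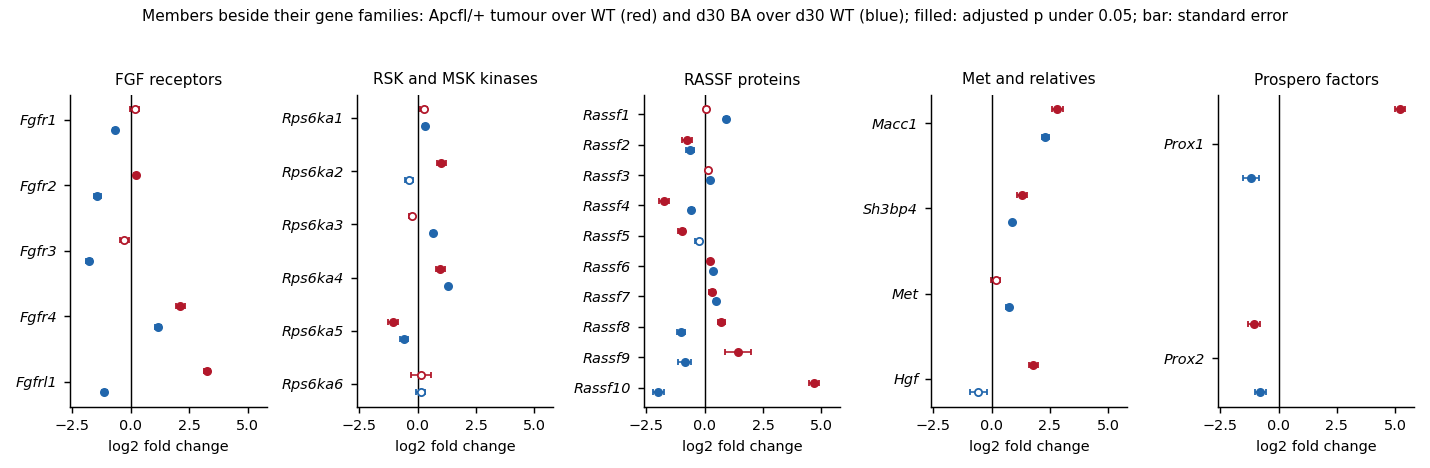
Log2 fold changes of each member and its relatives in Apcfl/+ tumours against WT small intestine (red) and in d30 BA against d30 WT (blue), with bars of 1 SE and filled circles where the adjusted p was under 0.05. Fgfr4 lies above 0 in d30 BA, where Fgfr1, Fgfr2, Fgfr3 and Fgfrl1 lie below it.

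Over the 11 group means of log2 CPM, Macc1 and Fgfr4 had a Pearson r of 0.90 and Rassf10 and Prox1 one of 0.70, given as a description of 11 points that differ in tissue and share libraries' depth and processing. The 11 groups include day 4 Apcfl/fl and its WT, on which the members were chosen. Part of any likeness over the 11 groups therefore follows from that choice. Over the 7 colon groups the same r values were 0.96 and 0.89, and the values between the pairs were negative there, from -0.83 (Fgfr4 and Prox1) to -0.76 (Macc1 with Rassf10 and with Prox1). The genes whose 11 group means were most like those of Macc1 were Etv4 (r = 0.941), Plcd3 (0.926) and AI481877 (0.920), of 23445 genes compared. For Fgfr4 they were Sh3bp4 (0.964), Memo1 (0.955) and Dusp9 (0.925). For Rps6ka6 they were Pnpt1 (0.969), Exo1 (0.956) and Psmc3ip (0.952), for Rassf10 Cnpy4 (0.934), Ube2e2 (0.931) and Tubb2a (0.927), and for Prox1 Nkd1 (0.963), Igsf11 (0.959) and Gm15199 (0.959). Etv4 is an ETS transcription factor and Dusp9 a phosphatase of MAP kinases, and Nkd1 is a feedback inhibitor of Wnt signalling. No role is given here for the other listed genes, and a shared role was not tested. The median over all libraries was 0.121 CPM for Gm15199, under the counting floor given below, and 0.451 for AI481877.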

How the data were processed

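The authors made RNA-seq libraries from whole tissue and sequenced paired reads of 36 bases. Per the submitters' processing notes and the paper's methods, reads were checked with FastQC 0.11.8, trimmed with Trim Galore 0.6.4, aligned to GRCm38 with HISAT2 2.1.0 and counted on genes with featureCounts 1.6.4. The deposited table holds these raw counts for 53 libraries, without normalisation. How strand and multi-mapping reads were set in the counting is not given in the sources used here. Of the members' 36-base exon words, at most 1.52% occur elsewhere.

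The 5 members, the lists and the tests were chosen with earlier results of these data known. Of 55421 identifiers, 55154 have a symbol in the gene annotation and 267 have none. Each comparison was fitted alone over all genes with edgeR 4.0.16 (filterByExpr, TMM, quasi-likelihood test, two-sided, Benjamini-Hochberg over all genes tested, threshold 0.05), so that the spread of other tissues did not enter. Group was the only term, because the labels name no batch or sex. Differences between effects were tested with an interaction term. Levels are CPM with TMM factors over all 53 libraries, called normalised CPM. A count of 3 corresponded to 0.138 to 0.192 CPM at the groups' median depths, and this floor covers counting error only. Errors of fold changes are the log2 fold change divided by the root of the F statistic, and 95% intervals use the t quantile at the degrees of freedom of the fit and so include the spread between libraries. Members were named in every comparison, and from each list the rest of the signature, Lgr5, Notum, family genes and up to 4 other genes per comparison. Likeness was the Pearson r over group means of log2 CPM (prior count 2). The fits were tested on simulated counts. Alternatives were RLE scaling, no filter, DESeq2 1.42.0, limma 3.58.1 with voom, 1 fit over the 5 groups of day 30, a replicate block over the replicate numbers found in both groups, each library left out in turn, and 1 pair of libraries left out together. R 4.3.3, Python 3.11.15, pandas 2.3.3 and matplotlib 3.10.9 were used. Replicates were compared by chi-square per gene over 120 pairs, with a lowest value of 4.18, and no 2 libraries were found to agree within sampling noise.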

Additional observations from a re-analysis of the deposited data

Results flagged for a closer look

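In 3 of 45 sets of 4 to 10 libraries of 1 group, 1 for each member and group tested, 1 library stood apart from the others by Dixon's 95% critical value, which chance alone gives in about 1 of 20 sets. Rps6ka6 was at 2.09 CPM in the library labelled Apcfl/+ tumour replicate 2, against 7.70 to 8.77 in the other tumours, the same library that lacks small intestine markers. Rps6ka6 was at 2.57 CPM in d30 BA replicate 3, against 2.03 to 2.16 in the others. Macc1 was at 7.27 CPM in antibiotic-treated d30 BA replicate 3, against 9.07 to 9.64, the same library that has the high fibroblast marker sum.

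The effect of the tumour differed between BA and Apcfl/+, by an interaction term, for Prox1 (-6.30, adjusted p = 6.65e-06), Rassf10 (-6.24, adjusted p = 3.8e-05) and Rps6ka6 (-1.71, adjusted p = 0.0366). The effect of BA differed between endpoint tumours and day 30 for Rps6ka6 (-1.73, adjusted p = 0.0109). In both tests of Rps6ka6 the Ddx3y levels of the libraries differ between groups, and their part was not tested.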

How the results depend on the processing

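Of 840 member values recomputed under alternatives or without a library, 792 kept their direction and side of the threshold, 16 lost the call, 12 gained one and 20 changed sign, none of those 20 called. No member count changed with RLE scaling. Counts of members called ranged, with each library left out in turn, from 1 to 3 for BA tumours (3 with all libraries), from 1 to 3 for antibiotic-treated against untreated d30 BA (2 with all), from 2 to 4 for the interaction of the tumour effects (3 with all) and from 3 to 4 for d30 BA against d30 A (3 with all). They were constant in the other comparisons. In sulindac-treated A against d30 WT, DESeq2 called 1 member and the fit over the 5 groups of day 30 called 1, Macc1 in both, where edgeR called 0. The latter fit called 0 members in antibiotic-treated against untreated d30 BA. DESeq2 called 4 members in BA tumours, adding Rassf10 (adjusted p = 0.0275), and 3 in antibiotic-treated against untreated d30 BA, adding Rassf10 (adjusted p = 0.0218). For these changes the cause was not tested.

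With the replicate number as a block, 1 member was called in BA tumours (Fgfr4) and 1 in antibiotic-treated against untreated d30 BA (Fgfr4), and this fit changed no other member call. It kept only replicate numbers found in both groups. That left 3 libraries per group for BA tumours and for Apcfl/+ tumours, and 5 for antibiotic-treated against untreated d30 BA. Where libraries were dropped, their loss and the block cannot be told apart. Same-numbered libraries did not deviate together, with correlations from -0.35 to 0.16 and at most 2 libraries per comparison closest to their own number, so that the samples share only a number. Under the block Rps6ka6 gave -0.19 in Apcfl/+ tumours and Prox1 0.01 in sulindac-treated against untreated A, and without the low-count filter Prox1 gave -0.04 in the interaction of endpoint and day 30. With libraries left out in turn, values that crossed 0 were Rps6ka6 in antibiotic-treated d30 BA (-0.17 to 0.16), in sulindac-treated A (-0.01 to 0.38) and in Apcfl/+ tumours (-0.04 to 0.38), Rassf10 in d30 A (-0.18 to 0.06), and Fgfr4 (-0.12 to 0.37) and Prox1 (-0.24 to 0.17) in sulindac-treated against untreated A. In the interaction of endpoint and day 30 they were Macc1 (-0.42 to 0.00), Rassf10 (-0.03 to 1.34) and Prox1 (-0.27 to 0.50).

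Over all genes, the BA tumour comparison called 2527, with 3798 by DESeq2 and 848 under the block, which also dropped BA tumour replicate 4. With a library left out it called 696 to 3641, the lowest without WT replicate 1, and 1380 without BA tumour replicate 4 and 1089 without WT replicate 3. The 26 Wnt genes gave 9 calls there, and 3 under the block. Antibiotic-treated against untreated d30 BA called 2172, with 1074 in the fit over 5 groups, 1284 under the block and 1300 to 2683 with a library left out. The Apcfl/+ tumours called 12650, and 8211 under the block, which also dropped tumour replicates 4 and 5. The interaction of endpoint and day 30 called 3371, with 2225 to 5051 with a library left out, the lowest without WT proximal colon replicate 3. In d30 A and in sulindac-treated A against d30 WT edgeR called 25 and 9 genes and DESeq2 136 and 111, and in sulindac-treated against untreated A 0 and 5. At counts of 1 to 4367 per library, the lowest members limit what could be detected, and the smallest library held 1 read of Macc1.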

Other observations

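Against d30 A, 7 of 24 tested Wnt pathway genes were higher and 10 lower in d30 BA, beside 45.3% of all genes called. Their median log2 fold change was -0.37, against -0.06 over all genes. In the interaction of the BA effect at endpoint with that at day 30, 8 of 25 were higher at endpoint and 1 lower, beside 16.3% of all genes called. The median there was 0.60, against 0.02 over all genes. Without BA tumour replicate 2, 9 of 25 were higher and 1 lower, with a median of 0.56. In antibiotic-treated against untreated d30 BA, Fgfr3, which was lower in d30 BA than in WT, was higher by 0.75 on the log2 scale (adjusted p = 0.00658), whereas Fgfr4 was lower. In antibiotic-treated d30 BA against d30 WT, Fgfr3 (-1.00) and Fgfr2 (-1.63) were lower.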
